A study of Homo sapiens with 24 samples.

Results

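The genes described here are the human zinc finger genes whose symbols run ZNF and a number, taken where they code for protein and where the deposited TPM, a level scaled for transcript length and sequencing depth, averaged at least 5 over all 24 tumors. This rule left 144 of the 474 protein-coding ZNF genes, and all 144 passed the low-count filter of the tests. The tumors were AsPC-1 xenografts, grown in mice from an established human line of pancreatic ductal adenocarcinoma. In 6 groups of 4 tumors, 1 tumor from each animal, mice had received 3 oral doses, 1 every other day, of IK-595 at 6 mg/kg or of its vehicle, 5% DMSO with 95% PEG400. The labels name IK-595 as a molecular glue of MEK and RAF, so the study followed RNA after block of the MAPK pathway. Vehicle tumors were taken 2 h after the last dose. IK-595 tumors were taken 2, 4, 8, 24 and 48 h after it, and each of these groups was compared with the same 2 h vehicle tumors, so that later comparisons also differ in the time of collection. All groups come from a single cell line, the mouse strain and age are not described here, and RNA of mouse host cells may be present in each tumor. RNA was selected by polyA and read as pairs on a NovaSeq.

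Most ZNF proteins read DNA through C2H2 zinc fingers, short repeated units in which a pair of cysteines and a pair of histidines hold a zinc ion, and neighbouring fingers read neighbouring bases. Many also carry a KRAB domain, which binds TRIM28 (KAP1), and through it the histone methyltransferase SETDB1 and heterochromatin protein HP1, so that the bound DNA, often a transposable element, is silenced. KRAB zinc finger genes arose by tandem duplication and lie in large clusters on chromosome 19. Other ZNF-named proteins have no KRAB domain and act as activators, as partners of histone-modifying complexes, or outside transcription, for example on ribosomes or on the mitotic spindle.

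The KRAB class was set here by a sequence pattern of the KRAB A box in the translated coding sequence, which 50 members held and 94 did not. The pattern is strict: ZNF224, a well-studied KRAB protein, did not match it and is counted among the 94. Other KRAB proteins may stand among the 94 too. The 94 are thus members without the pattern, and not a set free of KRAB domains. Members with the pattern had a median of 11.5 fingers against 5 in the others, up to 32 in ZNF91, a repressor of SVA and L1 retrotransposons, and 6 members had no finger match. On chromosome 19 lay 43 members, 41 of them in 10 clusters of ZNF genes, and 26 of the 43 held the KRAB pattern. The first finger unit of 4 members, 84 coding bases each, is printed to show how far base composition differs between copies of the same protein unit, since results below depend on GC content. Capitals mark the codons of the 2 cysteines and the 2 histidines, and bases run 5′ to 3′ in coding direction from the GENCODE 29 transcripts (GRCh38).
ZNF83: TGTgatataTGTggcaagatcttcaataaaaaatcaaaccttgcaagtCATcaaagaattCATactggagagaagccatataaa
ZNF91: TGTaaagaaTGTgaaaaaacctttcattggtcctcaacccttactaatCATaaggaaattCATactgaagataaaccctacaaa
ZNF146: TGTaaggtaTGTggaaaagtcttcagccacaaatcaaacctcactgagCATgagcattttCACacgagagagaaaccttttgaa
ZNF467: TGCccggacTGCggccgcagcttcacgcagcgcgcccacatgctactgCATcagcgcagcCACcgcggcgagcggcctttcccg
The capitals fall at the same places in all 4 units, while GC content was 32.1% in ZNF83 and in ZNF91, 40.5% in ZNF146 and 72.6% in ZNF467. Over whole transcripts, GC content was 41.7% for ZNF83, 37.0% for ZNF91, 41.4% for ZNF146 and 67.5% for ZNF467.

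Depth was 10.52 to 20.64 M counts per tumor, at which the median member had a standard error of 0.17 on its log2 fold change at 8 h. A score of 10 MAPK output genes, a mean of log2 CPM (counts scaled to the depth of each tumor), stood at 6.52 in vehicle tumors (SD 0.04, n = 4), 2.74 at 8 h (SD 0.52) and 6.15 at 48 h (SD 0.18). The share of counts from mitochondrial genes averaged 9.70% in vehicle tumors, 15.99% at 2 h and 11.24% at 4 h. It averaged 20.61% at 8 h, 17.8% at 24 h and 12.06% at 48 h. A GC trend was fitted in each tumor to log2 CPM, after each gene's mean over the 24 tumors was subtracted. Its value at 60% GC minus that at 40% GC was -0.39 to -0.237 in vehicle tumors and -0.4 to -0.135 at 4 h. At 8 h it was 0.212 to 0.312, and at 2 h -0.129 to 0.284. At 24 h it was -0.012 to 0.426, and at 48 h -0.231 to 0.37. Against genes of low GC, GC-rich genes thus read higher at 8 h than in vehicle tumors. The group mean was higher at 2, 24 and 48 h also. Summed over 10 fibroblast and pericyte markers, CPM was 959 to 1910 in vehicle tumors and 28400 in 4 h tumor 2, while the 8 epithelial markers summed to between 5770 and 14500 in every tumor. In bulk RNA, fewer cells of a type and less RNA per cell cannot be told apart.

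The rule for members uses the treated tumors as well as the vehicle tumors, and this bears on every count below. Of the 144 members, 131 also averaged at least 5 TPM in the vehicle tumors alone. The other 13 (ZNF16, ZNF57, ZNF90, ZNF91, ZNF250, ZNF467, ZNF500, ZNF506, ZNF517, ZNF552, ZNF821, ZNF839 and ZNF865) passed only because treated tumors raised their mean, and their median log2 fold change was 0.60 at 2 h and 0.82 at 8 h. Another 17 ZNF genes averaged at least 5 TPM in vehicle tumors but not over all tumors, and their medians were -0.32 and -0.41. Taken by the vehicle mean instead, 148 genes had medians of 0.10 at 2 h and -0.02 at 8 h. Just inside the threshold were ZNF680 at 5.05 TPM, ZNF865 at 5.08 and ZNF462 at 5.12, and just outside were ZNF770 at 4.95, and ZNF764 and ZNF791 at 4.83 each.

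Members moved in both directions after IK-595, most often at 8 h. Called means an adjusted p under 0.05 in edgeR's quasi-likelihood test with Benjamini-Hochberg adjustment over 18242 genes. At 2 h, 31 members rose and 8 fell, where 13.4% of all genes tested rose and 13.6% fell. At 4 h, 15 rose and 11 fell, against 6.74% and 8.39% of all genes. At 8 h, 50 rose and 28 fell, against 20.6% and 23.7%. At 24 h, 30 rose and 6 fell, against 13.7% and 13.8%. At 48 h, 5 rose (ZNF57, ZNF517, ZNF608, ZNF652 and ZNF653), against 5.52% of all genes, and 0 fell, against 4.46%. At an unadjusted p under 0.05, 2 fell at 48 h by edgeR, and DESeq2 and limma-voom each called 0. Since the rule used these tumors, nothing is read from the difference between the members' shares and those of all genes.

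Over the 5 times, 56 members rose at 1 or more and fell at none, 36 fell at 1 or more and rose at none, and 52 were called at no time. These patterns were not counted over all genes, and the rule for members favours rises, so no excess is read from them. The 5 comparisons share their vehicle tumors, so nothing is read from the agreement between times. The median log2 fold change of the members was 0.18, -0.09, 0.16, 0.12 and 0.10 at 2, 4, 8, 24 and 48 h, where that of all genes tested was 0.05, 0.03, 0.07, 0.06 and -0.01. An F test over the 5 times called 87 members, 60.4%, against 49.8% of all genes. The balance differed on log2(TPM + 1) tested with limma, which changes the measure, the test and the genes kept together. There all genes had a median of -0.11 at 2 h and -0.15 at 8 h. At 8 h 21 members rose and 34 fell, against 10.7% and 28.5% of all genes kept there. At 2 h 8 rose and 10 fell, against 6.43% and 15.5%. Of the 8 h calls, 35 of the 50 rises and 16 of the 28 falls were kept on leaving out each tumor in turn. The smaller counts hang on single tumors: falls at 2 h numbered 14 without 24 h tumor 1, 4 without vehicle tumor 1 and 5 without vehicle tumor 2 or 2 h tumor 2 or 4. Falls at 4 h numbered 7 without vehicle tumor 3 or 4 h tumor 4, falls at 24 h 3 without vehicle tumor 1 or 24 h tumor 4, and rises at 48 h ran from 1 (without vehicle tumor 1 or 2 or 48 h tumor 2) to 10 (without 24 h tumor 3).

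**Figure D1:**
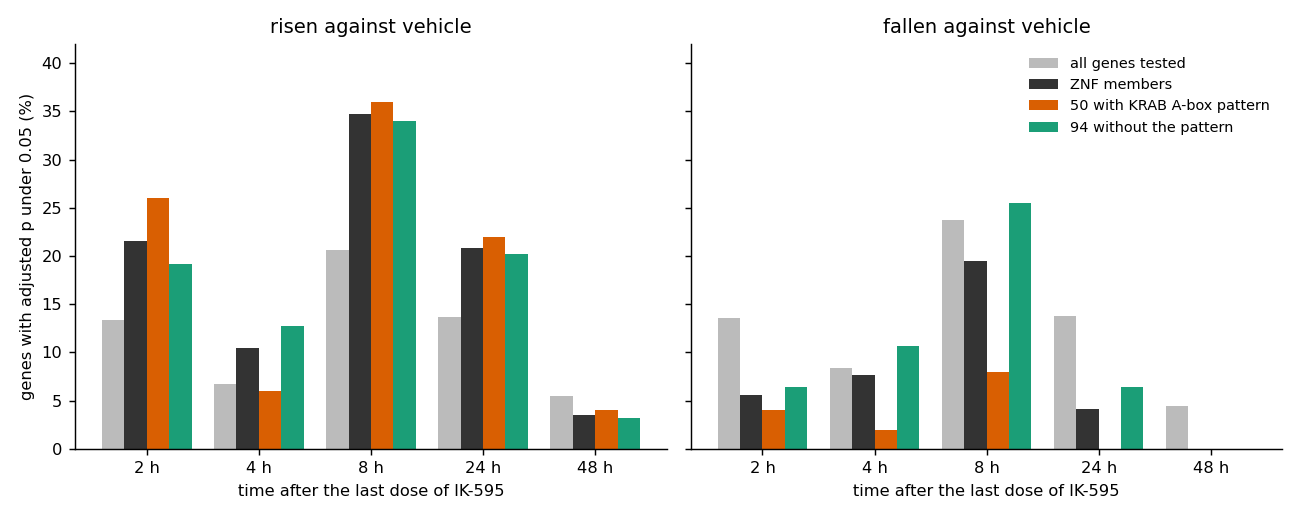
Percent of genes called risen (up) and fallen (down) at each time against vehicle, by edgeR at an adjusted p under 0.05, for all 18242 genes tested, the 144 members, the 50 members with the KRAB pattern and the 94 without. Called members are most frequent at 8 h, on both sides. At 24 h 11 KRAB members are risen; 1 KRAB member fell there once the GC trend was removed, a setting not drawn.

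ZNF608 rose at all 5 times (chr5:124636913-124748807, minus strand, GRCh38). In the vehicle tumors it had 35, 31.6, 36.2 and 37.9 CPM, and at 8 h 76.5, 87.8, 82 and 68.5 CPM. At 2 h the tumors had 73.4, 82.4, 75.2 and 71.9 CPM, at 4 h 75.7, 60.8, 82.8 and 67.2 CPM, and at 24 h 63.3, 93.2, 56.9 and 75.6 CPM. Every tumor at these 4 times lay above every vehicle tumor, and at 48 h, with 55.6, 64.8, 45 and 37.5 CPM, 3 of the 4 did. The log2 fold change, here and below ± its standard error, was 1.16 ± 0.16 (adjusted p = 5.27e-06) at 8 h and 0.53 ± 0.16 (adjusted p = 0.0314) at 48 h. At 48 h it no longer passed when 1 of 4 tumors (vehicle 1 or 2, IK-595 1 or 2) was left out, with no low-count filter and on log2(TPM + 1). ZNF652, a repressor that works with the corepressor CBFA2T3, and ZNF57 were the other members that rose at all 5 times. ZNF652 had 36.4, 33, 33.4 and 36.9 CPM in vehicle tumors and 47.3, 51.1, 53.8 and 47.9 CPM at 8 h. Its log2 fold change ran from 0.53 ± 0.09 (adjusted p = 0.000445) at 2 h to 0.31 ± 0.09 (adjusted p = 0.0358) at 48 h. ZNF57, one of the 13 members under 5 TPM in vehicle tumors, had 5.81, 4.84, 5.62 and 4.59 CPM there and 8.87, 9.62, 7.28 and 7.84 CPM at 48 h, a log2 fold change of 0.69 ± 0.16 (adjusted p = 0.00705). Each 48 h tumor was above each vehicle tumor for both genes, but the 48 h call of ZNF652 was lost on leaving out any 1 of 7 tumors, while that of ZNF57 was kept on leaving out each tumor. Both 48 h calls were lost with no low-count filter and on log2(TPM + 1).

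ZNF467, which in marrow stromal cells favours adipocytes over osteoblasts, had its highest values at 8 h (chr7:149764182-149773479, minus strand). Vehicle tumors had 7.18, 7.36, 7.22 and 8.64 CPM and 8 h tumors 23.4, 24.7, 21 and 31.1 CPM, with no overlap. At 24 h the values were 16.4, 13.3, 10.8 and 16 CPM, below all 8 h tumors and above all vehicle tumors. The log2 fold change was 1.72 ± 0.21 (adjusted p = 1.18e-06) at 8 h, and it fell by 0.83 from 8 h to 24 h (SE 0.20, adjusted p = 0.0125). ZNF467 is GC-rich and was under 5 TPM in vehicle tumors, and with the GC trend removed its 8 h log2 fold change was 1.16. ZNF488, a partner of OLIG2 in oligodendrocyte development, had its highest values at 4 h. There were 18.7, 24, 15.6 and 14.5 CPM in vehicle tumors, 72.2, 39.1, 64 and 71.4 CPM at 4 h and 12.5, 19.5, 19.1 and 21.8 CPM at 24 h. The 4 h tumors were all above the vehicle tumors, and the 24 h tumors overlapped them. Relative to vehicle it changed by 1.76 ± 0.22 (adjusted p = 5.98e-06) at 4 h, 1.0 ± 0.22 (adjusted p = 0.000899) at 8 h on the log2 scale, and its 24 h value was 0.01 ± 0.22 (adjusted p = 0.985).

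Among KRAB members, ZNF83 was the most abundant, at 101 TPM averaged over all tumors. It lies in the chromosome 19 cluster with the most members, 11 (chr19:52594060-52690496, minus strand, with ZNF137P on the opposite strand). Vehicle tumors had 87.6, 98.8, 174 and 136 CPM, 2 h tumors 207, 233, 243 and 238 CPM and 4 h tumors 193, 105, 177 and 98.6 CPM. All 2 h tumors exceeded all vehicle tumors, while the 4 h tumors overlapped them. The log2 fold change was 0.89 ± 0.24 (adjusted p = 0.00827) at 2 h, 0.21 ± 0.24 (adjusted p = 0.597) at 4 h and 0.92 ± 0.24 (adjusted p = 0.00316) at 8 h. On log2(TPM + 1) the 2 h and 8 h calls of ZNF83 were lost. For ZNF862 and ZNF337, too, the estimate at 4 h was below those at 2 h and 8 h, though 4 h was not tested against those times. ZNF862 had 20.4, 20.1, 25.5 and 26.1 CPM in vehicle tumors and 57.6, 41.3, 82.7 and 48.9 CPM at 8 h without overlap, and log2 fold changes of 1.20 ± 0.26 (adjusted p = 0.00204) at 2 h, 0.47 ± 0.26 (adjusted p = 0.226) at 4 h and 1.32 ± 0.26 (adjusted p = 0.000328) at 8 h. ZNF337 rose by 1.11 ± 0.29 (adjusted p = 0.00846) at 2 h and 1.01 ± 0.29 (adjusted p = 0.00806) at 8 h, with 0.00 ± 0.29 (adjusted p = 0.996) at 4 h. The 8 h call of ZNF337 was lost without 8 h tumor 3. ZNF337 has an antisense gene, ZNF337-AS1, and without a stated use of strand the reads of the pair cannot be told apart.

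Of the KRAB genes with a named target or use, 7 were tested and 2 of these are members. ZNF91 had 9.67, 11.1, 12.5 and 13.2 CPM in vehicle tumors and 16.7, 19.2, 27 and 16.4 CPM at 8 h, with each 8 h tumor above each vehicle tumor. Its log2 fold change was 0.77 ± 0.18 (adjusted p = 0.00152), and its vehicle level was among those under 5 TPM. ZNF587, which binds endogenous retroviruses, was called at no time and had 0.04 ± 0.16 (adjusted p = 0.86) at 8 h. ZNF224, a KRAB repressor that also partners WT1, had 12.4, 13.4, 21.7 and 18.4 CPM in vehicle tumors and 31.7, 29.7, 54.2 and 36.4 CPM at 8 h, without overlap, for a log2 fold change of 1.20 ± 0.22 (adjusted p = 0.000176). KRAB members also fell: ZNF468, in the same cluster as ZNF83, had 20.9, 21, 22.2 and 16.8 CPM in vehicle tumors and 11.4, 9.05, 11.8 and 10.9 CPM at 8 h, also without overlap. Its log2 fold change was -0.83 ± 0.17 (adjusted p = 0.00166) at 2 h and -0.91 ± 0.18 (adjusted p = 0.000258) at 8 h. ZNF468 overlaps ZNF28 and ZNF320 on its own strand, and paralogs of this kind can share reads, so its value is less certain.

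**Figure D2:**
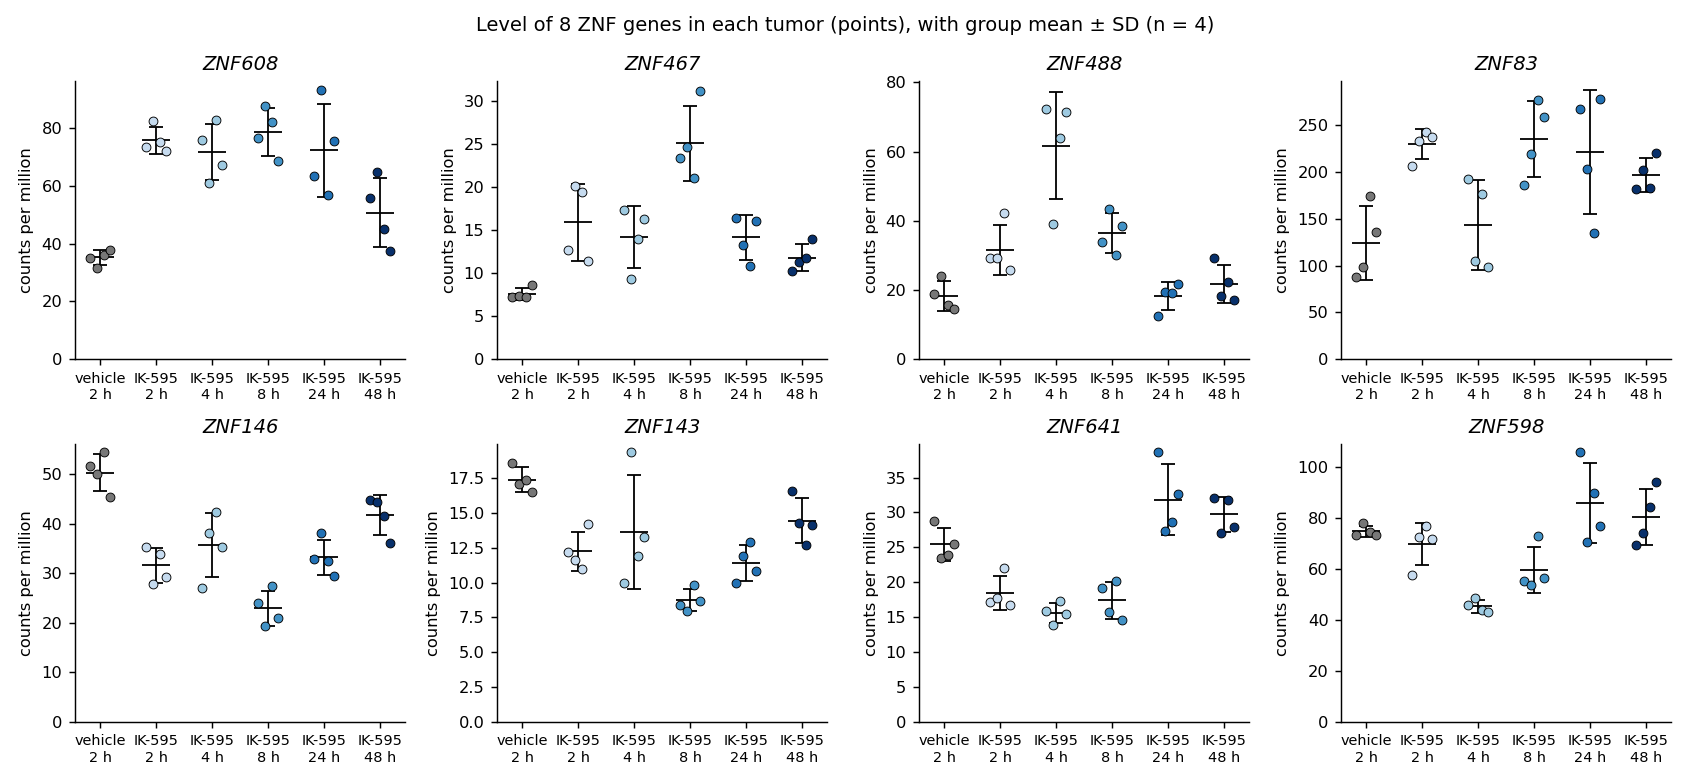
CPM in each of the 24 tumors (points) with the mean and SD of 4 tumors for 8 members, by group along the x axis; each panel has its own y axis from 0. ZNF608, ZNF467, ZNF488 and ZNF83 lie above vehicle at 8 h, and ZNF146, ZNF143, ZNF641 and ZNF598 below it there.

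The largest called fall of a member against vehicle was that of ZNF146, a protein made almost wholly of zinc fingers (chr19:36214602-36238774, plus strand, overlapping ZNF565 on the opposite strand). Vehicle tumors had 51.6, 50, 54.4 and 45.3 CPM and 8 h tumors 24, 19.4, 27.4 and 20.9 CPM. At 2 h the values were 35.3, 27.9, 33.9 and 29.3 CPM and at 24 h 32.9, 38.1, 32.4 and 29.5 CPM. The vehicle tumors were above every tumor of these 3 groups. The log2 fold change was -1.13 ± 0.14 (adjusted p = 1.45e-06) at 8 h, -0.60 ± 0.14 (adjusted p = 0.00253) at 24 h and -0.27 ± 0.14 (adjusted p = 0.232) at 48 h. ZNF146 was the 1 member that fell at 4 times.

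ZNF143 and ZNF76 are paralogs that bind the same promoter element at protein-coding and small nuclear RNA genes, and they moved apart. ZNF143 had 18.6, 17.1, 17.4 and 16.5 CPM in vehicle tumors and 8.42, 7.99, 9.82 and 8.64 CPM at 8 h. ZNF76 had 24.7, 21.6, 25.4 and 28.7 CPM in vehicle tumors and 38.3, 41.6, 49.9 and 42.6 CPM at 8 h. The 2 groups did not overlap for either gene. The log2 fold change at 8 h was -1.0 ± 0.16 (adjusted p = 4.19e-05) for ZNF143 and 0.78 ± 0.14 (adjusted p = 0.000142) for ZNF76. At 24 h ZNF143 had -0.61 ± 0.16 (adjusted p = 0.00707) and ZNF76 0.48 ± 0.14 (adjusted p = 0.0156). The 24 h tumors overlapped vehicle for ZNF76, and its 24 h call was lost with the GC trend removed, with no low-count filter, on log2(TPM + 1) and without vehicle tumor 2 or 24 h tumor 1. With the GC trend removed, the 8 h values were -0.70 (adjusted p = 0.000507) and 0.58 (adjusted p = 0.00089).

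Over the list of transcription regulators outside the KRAB class, 19 tested genes of which 16 are members, 5 rose and 7 fell at 8 h, with a median log2 fold change of -0.22. Over all genes tested 20.6% rose and 23.7% fell then, with a median of 0.07. With the GC trend removed, 5 rose and 2 fell, with a median of -0.05, when 21.2% of all genes rose and 21.1% fell. ZNF217, an oncogene of the CoREST and CtBP complexes, had 91.5, 82.5, 85.8 and 96.5 CPM in vehicle tumors, 56.1, 59.7, 53.4 and 53.5 CPM at 8 h and 57.1, 108, 93.7 and 90.4 CPM at 24 h. It fell at 8 h by 0.68 on the log2 scale (SE 0.16, adjusted p = 0.00172), with no overlap, and at 24 h it stood at -0.03 ± 0.16 (adjusted p = 0.914), 3 tumors back in the vehicle range or above it. ZNF827, which brings the NuRD complex to telomeres, rose at 8 h by 1.02 ± 0.16 (adjusted p = 3.02e-05). ZNF410, known as an activator of CHD4, fell, with -0.43 ± 0.09 (adjusted p = 0.000641) at 8 h, while CHD4 itself had 0.17 ± 0.19 (adjusted p = 0.476) there and 0.56 ± 0.19 (adjusted p = 0.044) at 4 h. The 8 h call of ZNF410 was lost with the GC trend removed. ZNF644, a partner of the histone methyltransferases EHMT1 and EHMT2, fell, with -0.60 ± 0.16 (adjusted p = 0.00397) at 8 h, a call also lost with the GC trend removed. ZNF384, the most abundant regulator of the list, was not called, with 0.22 ± 0.12 (adjusted p = 0.145) at 8 h.

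ZNF-named proteins that act on RNA, ribosomes, the spindle or SUMO were 12 tested genes, 11 of them members, and at 8 h 7 fell and 2 rose, with a median log2 fold change of -0.43. Over all genes tested, 20.6% rose and 23.7% fell, with a median of 0.07. With the GC trend removed, 3 of the list rose and 3 fell, with a median of -0.16, when 21.2% of all genes rose and 21.1% fell. ZNF622, a factor of large ribosomal subunit maturation, had 37.6, 41.8, 50.5 and 33.2 CPM in vehicle tumors and 20.8, 25.6, 23.1 and 19.8 CPM at 8 h, all lower, for a log2 fold change of -0.87 ± 0.19 (adjusted p = 0.000862). ZNF593, the homolog of the yeast ribosome export factor Bud20, fell, with -0.67 ± 0.20 (adjusted p = 0.0104), as did ZNF207 (BuGZ), a spindle protein, with -0.44 ± 0.13 (adjusted p = 0.0095). The call of ZNF593 was lost without vehicle tumor 2, and with the GC trend removed the calls of ZNF207, ZNF106, ZNF330 and ZNF830, all among the 7 that fell, were lost. ZNF598, the ubiquitin ligase that marks collided ribosomes, was lowest at 4 h. It had 73.4, 77.9, 74.5 and 73.5 CPM in vehicle tumors, 46, 48.7, 43.9 and 42.9 CPM at 4 h, all lower, and 106, 70.6, 89.9 and 76.8 CPM at 24 h. It fell at 4 h, with a log2 fold change of -0.72 ± 0.13 (adjusted p = 0.000437), and had 0.20 ± 0.13 (adjusted p = 0.271) at 24 h. The 2 that rose at 8 h were ZNF326, a link between RNA polymerase II and splicing, by 0.74 ± 0.14 (adjusted p = 0.000292), and ZNF346, which binds double-stranded RNA, by 0.63 ± 0.13 (adjusted p = 0.000467). ZNF638, a DNA- and RNA-binding protein that works with the HUSH silencing complex, did not pass at any time and had 0.19 ± 0.13 (adjusted p = 0.257) at 8 h.

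By level per transcript length, ZNF706 led the members at 125 TPM averaged over all tumors, ahead of ZNF83 at 101, ZNF207 at 85.6, ZNF638 at 53.0 and ZNF692 at 41.8. The median member had 9.24 TPM, against 11.7 for all tested coding genes. ZNF692 rose at 8 h, by 0.84 ± 0.24 (adjusted p = 0.00737). The most abundant members that the F test did not call were ZNF638, ZNF384, ZNF655, ZNF593 and ZNF131. Of these, ZNF593 and ZNF131 passed in the single comparison at 8 h, ZNF131 with -0.35 ± 0.13 (adjusted p = 0.0342), a call lost with the GC trend removed and without any 1 of 6 tumors.

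From 8 h to 24 h, 8 of the 144 members rose, against 5.3% of all genes, and 2 fell, against 1.58%, shares near those of all genes. ZNF641 had 28.8, 23.5, 23.9 and 25.4 CPM in vehicle tumors, 15.8, 13.8, 17.3 and 15.4 CPM at 4 h, 19.1, 15.7, 20.1 and 14.6 CPM at 8 h and 38.6, 27.3, 28.6 and 32.7 CPM at 24 h. The 4 h and 8 h tumors were all below the vehicle tumors and the 24 h tumors all above the 8 h tumors. The rise from 8 h to 24 h was 0.87 ± 0.13 (adjusted p = 0.00022), the 1 rise that was kept on leaving out each tumor. The other rises were ZNF589 at 0.67, ZNF217 at 0.65, ZNF146 at 0.54, ZNF598 at 0.53, ZNF544 at 0.53, ZNF317 at 0.36 and ZNF410 at 0.31. The 2 that fell were ZNF488 and ZNF467, and of these the call of ZNF488 was kept. Without 24 h tumor 1, 10 members fell, without 24 h tumor 3 or 8 h tumor 4 1 fell, and without 4 h tumor 2, which enters the shared spread, 5 fell. Rises numbered 1 without 8 h tumor 4, 3 without 8 h tumor 2, 4 without 24 h tumor 2 and 5 without 24 h tumor 3 or 4 h tumor 4. From 2 h to 8 h, 2 members fell, ZNF581 with -0.88 ± 0.25 (adjusted p = 0.0462) and ZNF544 with -0.44 ± 0.12 (adjusted p = 0.0458), against 3.41% of all genes, and these calls were lost under 26 and 32 of 37 alternatives. In that comparison 0 members rose, against 1.05% of all genes, with 10 at an unadjusted p under 0.05 by edgeR, 6 by DESeq2 and 1 by limma-voom.

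Members with the KRAB pattern had higher median fold changes than the others at 4 of the 5 times. These comparisons share their vehicle tumors, so nothing is read from the agreement between times. At 8 h, 18 of the 50 rose and 4 fell, with a median log2 fold change of 0.29. Of the 94 others 32 rose and 24 fell, with a median of 0.04. All genes tested had 20.6% risen and 23.7% fallen then, with a median of 0.07. At 24 h, 11 KRAB members rose (median 0.28), where 13.7% of all genes rose. The 94 others had a median of 0.02 and held the 6 members that fell (ZNF143, ZNF146, ZNF451, ZNF511, ZNF639 and ZNF644), where 13.8% of all genes fell. Of these 6 falls, 3 were also called with the GC trend removed and 2 were kept on leaving out each tumor. Taken by the vehicle mean, 8 KRAB genes rose and 1 fell at 24 h. At 2 h the medians were 0.34 and 0.12, at 4 h -0.10 and -0.08, and at 48 h 0.17 and 0.07. The rule for members bears on the size of this difference. Among all 370 ZNF genes tested, whatever their level, 198 held the pattern and had a median of 0.01 at 8 h and 0.07 at 24 h, against -0.03 and 0 for the 172 others. Among the 148 genes taken by their vehicle mean, the medians at 8 h were 0.06 for KRAB genes and -0.04 for the others. With the GC trend removed, the 8 h medians of these 148 genes were 0.26 and -0.05. Those of all 370 were then 0.19 with the pattern and 0.02 without.

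Single tumors bear on these medians. Averaged over the 50 KRAB members, log2 CPM relative to the vehicle mean was 0.26, 0.11, 0.63 and 0.15 in the 8 h tumors and 0.51, 0.34, -0.10 and 0.34 in the 24 h tumors. The vehicle tumors themselves ran from -0.13 to 0.13, so 8 h tumor 2 and 24 h tumor 3 lay inside the vehicle range. At 2 h the values were 0.18, 0.28, 0.32 and 0.38, all above the vehicle tumors. Without 8 h tumor 3, the median of all members at 8 h was 0.04. Without 24 h tumor 3, 45 members rose at 24 h, and without 24 h tumor 1, whose mitochondrial share was 31.41%, 15 did. Without vehicle tumor 2, the vehicle tumor with the lowest KRAB mean, 16 did.

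**Figure D3:**
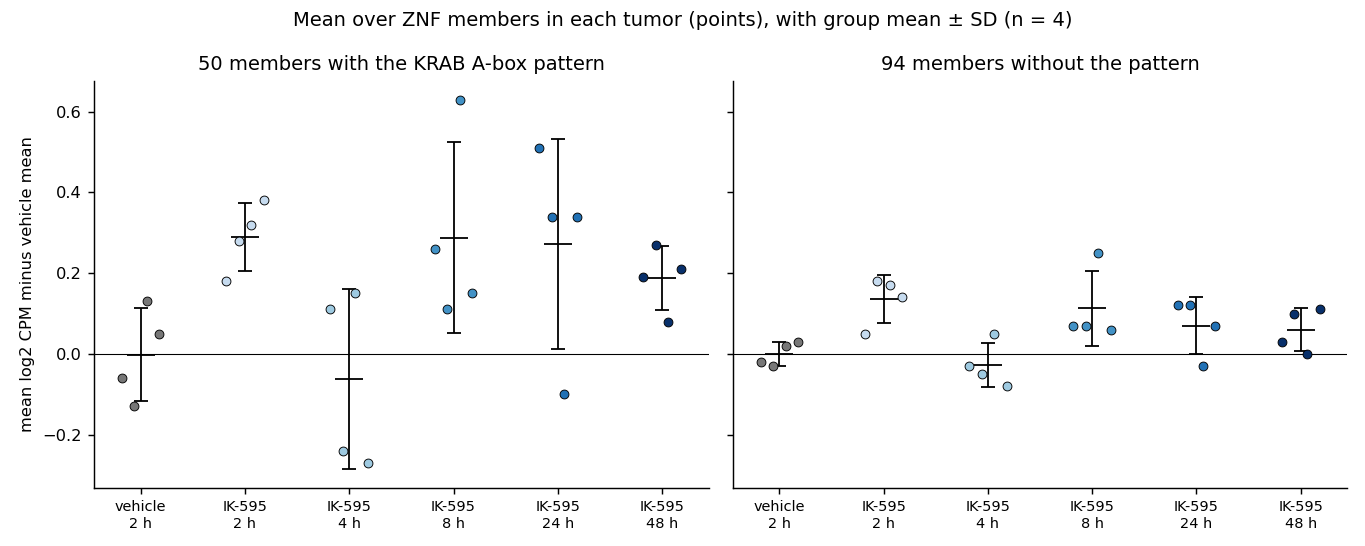
Mean log2 CPM of the 50 KRAB members and of the 94 others in each tumor, relative to the vehicle mean (0); points are tumors and bars the mean and SD of 4. KRAB members spread more within groups, from -0.10 to 0.51 at 24 h, and all 4 tumors lie above the vehicle range at 2 h.

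Chromosome 19 members had a median log2 fold change of 0.34 at 8 h, with 13 of 43 risen and 5 fallen. The 101 members elsewhere had 0.05, with 37 risen and 23 fallen. All genes tested had 20.6% risen and 23.7% fallen then. At 2 h the medians were 0.28 and 0.14, at 4 h -0.13 and -0.06, at 24 h 0.10 and 0.13, and at 48 h both were 0.10. The sign of the difference thus varied with time. At 24 h it was 0.11 in favour of chromosome 19 without 24 h tumor 3, and at 8 h the difference of 0.29 was 0.15 without 8 h tumor 3. The rule for members bears on it too. Among the 148 genes taken by their vehicle mean the 8 h difference was also 0.15. It was smaller still among the 235 genes with a mean TPM of at least 2. The clusters were uneven. In cluster 3 (chr19:11483427-12640098, GRCh38) the 3 members all rose at 8 h, with a median of 0.67. In cluster 8 (chr19:51571298-53580269), which holds ZNF83 and ZNF468, 1 of 11 rose and 1 fell, with a median of 0.08. Cluster 9 (chr19:55476332-56671783), with 7 members of a median GC content of 65.9%, had 2 risen at a median of 0.43.

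Transcript GC content separated the members within chromosome 19. The 26 KRAB members there had a median GC of 42.1%, and the 17 others 61.7%. Log2 fold changes at 8 h correlated with GC at r = 0.30 over the 144 members and r = 0.21 over 18004 genes, a description over genes that share the same tumors. Among members over 55% GC, 25 of 45 rose at 8 h and 4 fell, with a median of 0.49, against 0.34 for all 5574 tested genes of that GC. Of these 45, ZNF467, ZNF500, ZNF517, ZNF821, ZNF839 and ZNF865 passed the rule only because treated tumors raised their mean. All genes tested, whatever their GC, had 20.6% risen and 23.7% fallen then. Among members under 45% GC, the median was 0 over 58 genes, against -0.20 for all 6249 tested genes of that GC. In that AT-rich class the 27 KRAB members had a median of 0.22 and the 31 others -0.35. Of the 27, ZNF90, ZNF91 and ZNF506 also passed the rule only through treated tumors. Nothing is therefore read from the differences between members and all genes of like GC, and the rule bears on this KRAB contrast too.

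With the GC trend of each tumor removed by a spline over all genes, the order of the classes on chromosome 19 changed. The 8 h median became 0.50 for the 26 KRAB members there, from 0.21, and -0.03 for the 17 others, from 0.42. For members elsewhere it became 0.29 for the 24 with the pattern, from 0.36, and 0.04 for the 77 without, from -0.02. At 24 h the chromosome 19 medians became 0.43 with the pattern and -0.21 without, from 0.21 and 0.01. KRAB members as a class had 20 risen and 3 fallen at 8 h, with a median of 0.41, and 14 risen and 1 fallen at 24 h. Members falling at 8 h went from 28 to 17, and 36 rises and 14 falls were called both with and without the trend. After removal the correlation with GC over members was -0.23 at 8 h, where that over all genes was -0.02. The contrast by KRAB class was thus wider with the trend removed, and the contrast by chromosome smaller, at 0.20 instead of 0.29.

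**Figure D4:**
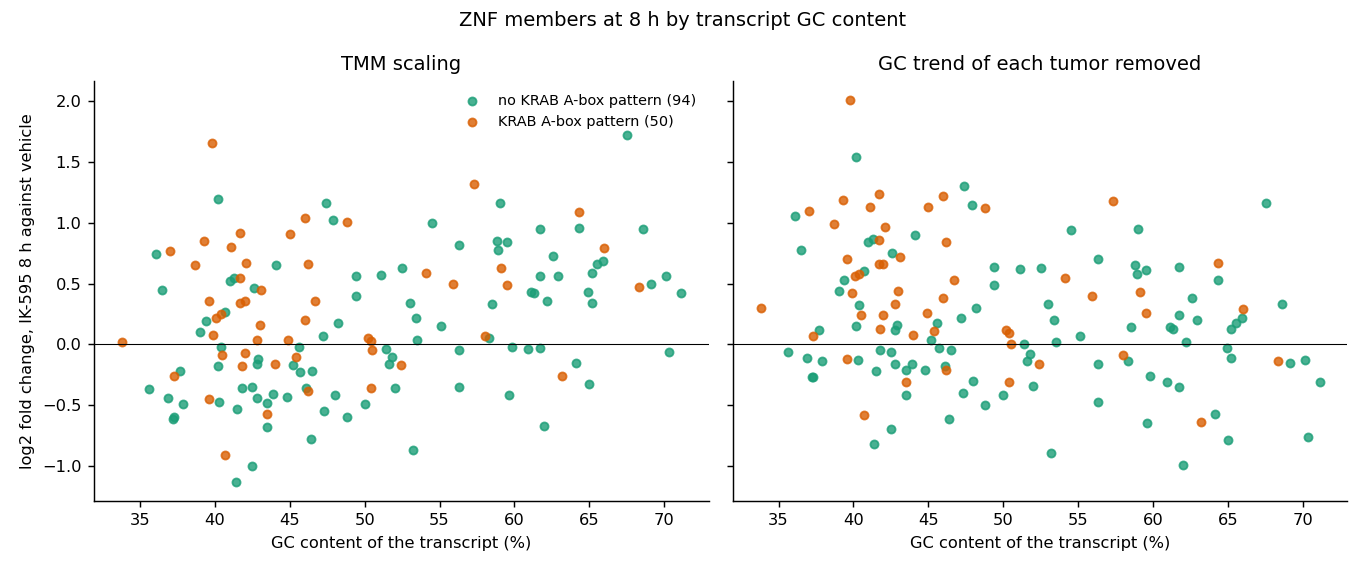
Log2 fold change at 8 h against transcript GC content (percent) for the 144 members, by KRAB class, with TMM scaling (left) and with the GC trend of each tumor removed (right). Left, members over 55% GC lie mostly above 0, with a median of 0.49; right, the correlation with GC is -0.23.

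**Figure D5:**
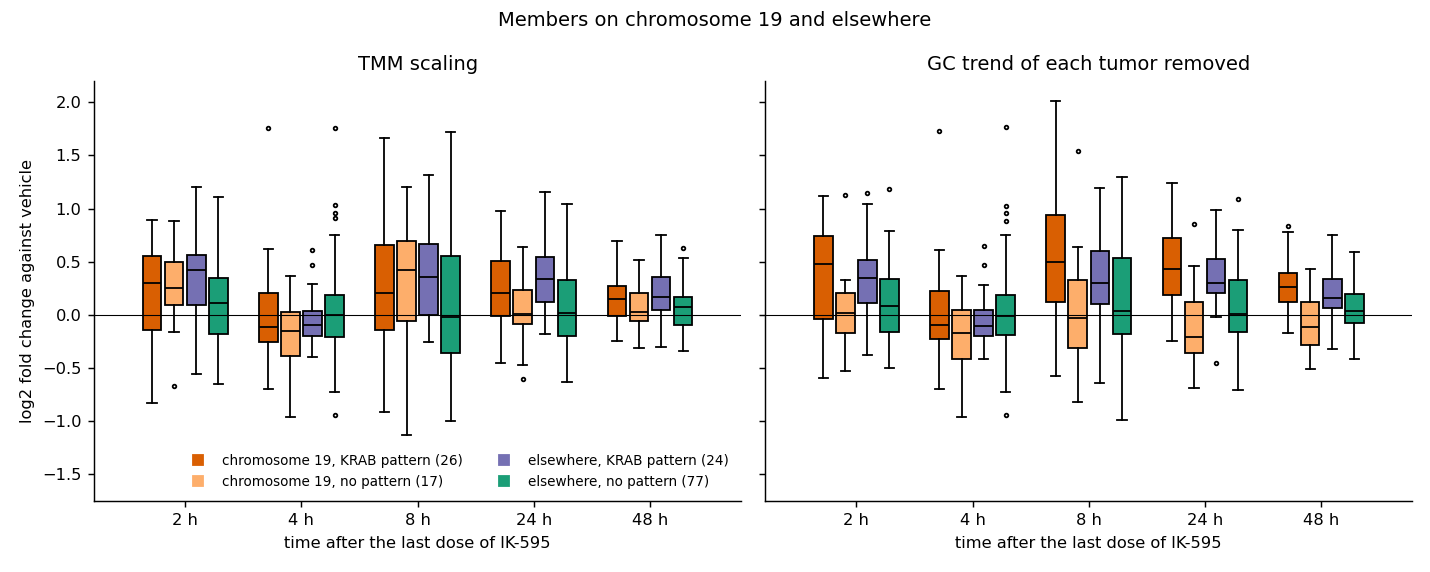
Log2 fold change against vehicle at each time for members by chromosome (19 or other) and KRAB class, with TMM scaling and with the GC trend removed; boxes give the median and quartiles. At 8 h the 17 chromosome 19 members without the pattern go from a median of 0.42 to -0.03, and the 26 with it from 0.21 to 0.50.

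Among 17 genes of the machinery that KRAB proteins recruit, 2 rose and 8 fell at 8 h, with a median of -0.34, when 20.6% of all genes rose and 23.7% fell. At 24 h, 1 rose and 8 fell, with a median of -0.35, when 13.7% of all genes rose and 13.8% fell. TRIM28, the KRAB partner itself, fell, with -0.43 ± 0.13 (adjusted p = 0.0103) at 8 h. The F test over the 5 times did not call TRIM28 (adjusted p = 0.0672). That test called 14 of the 17 genes, against 49.8% of all genes. With the GC trend removed it called 12, against 8704 of all 18242 genes. The counts, medians and fold changes at 8 h and 24 h in this paragraph are from the fit with the GC trend left in. CBX3 and CBX5, which code for HP1 proteins, fell, with -0.87 ± 0.10 (adjusted p = 9.21e-07) and -0.67 ± 0.13 (adjusted p = 0.000233) at 8 h. DNMT1, which copies DNA methylation at replication, fell, with -1.03 ± 0.25 (adjusted p = 0.00181), and so did SUV39H2, a histone methyltransferase, with -1.33 ± 0.24 (adjusted p = 0.000107). SETDB1 had 0.19 ± 0.10 (adjusted p = 0.109) at 8 h and rose at 24 h by 0.29 ± 0.10 (adjusted p = 0.025). CHD3 and EHMT2 were the pair that rose at 8 h, by 0.66 ± 0.17 (adjusted p = 0.00341) and 0.45 ± 0.16 (adjusted p = 0.0264). Of 5 HUSH and MORC genes, FAM208A fell, with -0.67 ± 0.12 (adjusted p = 0.000184) at 8 h, and MPHOSPH8 rose by 0.78 ± 0.21 (adjusted p = 0.00459).

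Windows of 250 bases before the start of transcription were taken from RefSeq (GRCh38.p14) for 118 of the 144 members and searched on both strands. The ETS core CCGGAAG, bound by factors downstream of ERK among others, was found in 34 of them (28.8%), against 14.6% of 11386 windows of other tested genes. The CRE TGACGTCA was found in 6.8% against 2.6%, the AP-1 site TGANTCA in 5.1% against 4.3%, the E-box CACGTG in 6.8% against 8.6%, the SP site GGGCGG in 63.6% against 64.6%, and the letters ACTACAA of the ZNF143 element in 5.1% against 3.4%. Median window GC was 64.8% in members and 64.4% in the others. At 8 h, 7 of the 34 members with the ETS core rose and 7 fell, and of the 84 without it 32 rose and 19 fell. At 2 h, 4 rose and 4 fell with it, and 20 rose and 4 fell without it. All genes tested had 20.6% risen and 23.7% fallen at 8 h, and 13.4% and 13.6% at 2 h. A match is a description of the letters, and binding was not measured. The windows of 4 members described above follow, 3 that rose at 8 h and ZNF622, which fell, chosen among those that no GENCODE 29 exon overlaps. Each runs 5′ to 3′ in the direction of its gene, all 4 genes lie on the minus strand, and capitals mark matches.
ZNF622, chr5:16465801-16466050: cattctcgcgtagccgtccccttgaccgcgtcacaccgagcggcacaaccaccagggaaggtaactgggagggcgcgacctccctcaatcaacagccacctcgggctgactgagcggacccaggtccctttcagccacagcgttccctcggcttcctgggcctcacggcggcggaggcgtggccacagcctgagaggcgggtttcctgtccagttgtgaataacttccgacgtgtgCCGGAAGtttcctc
ZNF608, chr5:124748825-124749074: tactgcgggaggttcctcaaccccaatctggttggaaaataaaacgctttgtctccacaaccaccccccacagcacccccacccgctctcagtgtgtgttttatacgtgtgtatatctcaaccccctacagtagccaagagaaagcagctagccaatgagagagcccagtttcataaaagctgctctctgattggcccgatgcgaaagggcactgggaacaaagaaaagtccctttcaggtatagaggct
ZNF467, chr7:149773589-149773838: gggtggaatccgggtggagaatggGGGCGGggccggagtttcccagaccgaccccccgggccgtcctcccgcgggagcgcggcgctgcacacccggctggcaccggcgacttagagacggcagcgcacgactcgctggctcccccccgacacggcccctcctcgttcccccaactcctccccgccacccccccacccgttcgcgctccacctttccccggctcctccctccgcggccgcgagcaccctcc
ZNF83, chr19:52690497-52690746: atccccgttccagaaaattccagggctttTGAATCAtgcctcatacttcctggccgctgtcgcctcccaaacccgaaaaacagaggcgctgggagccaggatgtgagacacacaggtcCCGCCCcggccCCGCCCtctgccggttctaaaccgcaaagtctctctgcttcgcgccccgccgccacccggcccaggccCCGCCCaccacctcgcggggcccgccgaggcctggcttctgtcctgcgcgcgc
The ZNF622 window, of the member that fell at 8 h, holds an ETS core. That of ZNF608 holds none of the motifs and has 50.4% GC, while that of ZNF467 has 75.6% GC and 1 SP match. The ZNF83 window holds 1 AP-1 match and 3 SP matches.

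One tumor held high values of several members. In 4 h tumor 2, the tumor with the summed fibroblast markers of 28400 CPM, ZNF90 had 32.1 CPM where the other 4 h tumors had 4.99, 1.85 and 5.47 CPM and the vehicle tumors 2.25, 3.87, 3.24 and 3.51 CPM. ZNF207 had 278 CPM there, and ZNF521 51.5 CPM. The marker sum ran from 860 to 28400 CPM at 4 h, 886 to 4900 at 2 h, 1260 to 5120 at 8 h, 1160 to 3230 at 24 h and 727 to 1580 at 48 h, 3 of the 10 markers rose at 4 h, and each marker was above 0 in every group. Without this tumor, 14 members rose and 9 fell at 4 h, close to the 15 and 11 with it. ZNF90 was singled out after its values were seen, and the part of host cells in these values was not tested. ZNF521, a regulator of progenitor cells, had -0.78 ± 0.30 (adjusted p = 0.039) at 8 h, a call lost on leaving out any 1 of 11 tumors. Among other named calls, those of ZNF680 and ZNF143 at 2 h, ZNF639 and ZNF644 at 24 h, and ZNF517 and ZNF653 at 48 h were lost with the GC trend removed and on leaving out single tumors.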

How the data were processed

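PolyA RNA of 24 tumors was sequenced, 4 animals in each of 6 groups, with groups and tumor numbers read from the sample titles. The submitters' processing notes name bcl2fastq 2.17, FastQC 0.12.1, Salmon 0.14.1 and GRCh38.p13. The deposited estimated counts per gene, made by the authors, were rounded for the tests, as 59.6% of values above 0 were whole to within 0.0015. The deposited TPM values, which the authors had brought to 1 total for every tumor, set membership and levels. Annotation release, strand use and mouse-read removal: not given in the sources used here. Of the members, 85 overlap a gene on the opposite strand and 54 one on their own.

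Of 60230 gene IDs, 57972 matched GENCODE 29, and the 2258 others hold 0.096% of counts. Genes kept by filterByExpr (18242, with 99.9% of counts) received TMM factors. All 24 tumors entered 1 quasi-likelihood fit of edgeR 4.0.16 (R 4.3.3, robust), from which came 7 comparisons and an F test of any difference among the 5 times from vehicle. P values, adjusted by Benjamini-Hochberg over all genes, measure the spread between tumors of separate animals. A prior count of 2 entered log2 CPM. The fit was tested on simulated counts.

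The GC trend was a natural spline of 5 degrees of freedom on transcript GC in each tumor, entered as offsets. The KRAB and finger patterns were searched in translated GENCODE 29 coding sequences in place of RefSeq proteins, which were not used here. Chromosome 19 clusters hold at least 5 ZNF genes with gaps up to 500 kb. Alternatives were DESeq2 1.42.0, limma-voom (limma 3.58.1), RLE and upper-quartile scaling, other filters, limma on TPM in log2 with 1 or 0.1 added, fits of the compared groups alone, a replicate block, the GC trend removed, mitochondrial genes left out, other membership thresholds and leaving out each tumor.

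Members, lists and tests were chosen with earlier results of these data known. Genes were named by a rule: in each comparison with vehicle, the 5 largest rises and 5 largest falls among called members without overlap between groups (3 and 3 between treated times), the 5 highest levels, the 5 smallest F test p values, the 5 highest levels not called by the F test, the 3 genes on each side of the threshold, and up to 4 genes of each list. Fewer are printed. ZNF76, ZNF90, ZNF410, DNMT1, SETDB1, CHD3, CHD4, EHMT2 and members named to spell out a small count were added after their values were seen.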

Additional observations from a re-analysis of the deposited data

Results flagged for a closer look

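Of 252 groups of 4 values checked (the named members and the 3 mean scores in each group), 19 held a highest or lowest tumor whose gap to the nearest other over the group's range exceeded Dixon's 95% critical value, where chance gives about 1 in 20. At 24 h, tumor 1 was the lowest for ZNF468, with 8.36 CPM, and for ZNF521, with 11.8 CPM, and tumor 3 the lowest for ZNF517, with 8.17 CPM. At 8 h, tumor 3 was the highest for ZNF598 (72.8 CPM), ZNF638 (147 CPM) and ZNF692 (67.4 CPM) and for the mean of members without the KRAB pattern (0.25 on the log2 scale), and tumor 2 stood apart for ZNF680 with 13 CPM. At 4 h, tumor 2 had 278 CPM of ZNF207, and tumor 3 had 6.21 CPM of ZNF593. At 2 h, tumor 3 had 14.5 CPM of ZNF789, and the mean of all members was lowest in tumor 1, at 0.09. At 48 h, tumor 4 had 15.6 CPM of ZNF468, tumor 3 had 8.67 CPM of ZNF789 and tumor 2 had 45.8 CPM of ZNF652. Among vehicle tumors, tumor 4 had 8.64 CPM of ZNF467, tumor 1 had 15.3 CPM of ZNF639, tumor 3 had 120 CPM of ZNF638 and tumor 2 had 16.8 CPM of ZNF593.

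Differences between treated times passed the edgeR test for 12 results. From 8 h to 24 h the log2 fold changes were -0.99 for ZNF488, -0.83 for ZNF467, 0.31 for ZNF410, 0.36 for ZNF317, 0.53 for ZNF544, 0.53 for ZNF598, 0.54 for ZNF146, 0.65 for ZNF217, 0.67 for ZNF589 and 0.87 for ZNF641. From 2 h to 8 h they were -0.88 for ZNF581 and -0.44 for ZNF544.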

How the results depend on the processing

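Values are given in the order of the times, and those not named stayed within 1.5 times the count or within 1 SD of the value. With a mean TPM of at least 10 (66 genes), risen members numbered 19, 4, 28, 16 and 2 at 2, 4, 8, 24 and 48 h and 4 from 8 h to 24 h, fallen ones 4, 3 and 16 at 2, 4 and 8 h, 0 from 2 h to 8 h and 1 from 8 h to 24 h, and the F test called 48. Medians were 0.27 at 2 h and 0.34 at 8 h, and the median of chromosome 19 members minus that of the others was 0.33, 0.07, 0.23 and 0.08 at 2, 4, 24 and 48 h, 0.06 from 2 h to 8 h and -0.28 from 8 h to 24 h. With at least 2 TPM (235 genes), 17, 19, 48, 16 and 4 fell, 14 rose from 8 h to 24 h, medians were 0.10 at 2 h and 0.02 at 8 h, and the chromosome 19 difference was 0.01 at 2 h and 0.03 at 8 h. With a vehicle mean of at least 5 TPM (148 genes), 13 fell at 2 h, 11 at 24 h, 2 at 48 h and 1 from 8 h to 24 h, 3 rose at 48 h, medians were 0.10 and -0.02 at 2 and 8 h, and the chromosome 19 difference was 0.15 at 8 h and -0.11 from 8 h to 24 h.

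On log2(TPM + 1), 8, 8, 21, 9 and 0 rose, 6 fell at 4 h, 3 at 24 h and 0 between treated times, medians were -0.01, -0.12 and -0.01 at 2, 8 and 48 h, the chromosome 19 difference was 0.14 and 0.06 at 8 and 24 h, and the F test called 50. On log2(TPM + 0.1) the counts were alike, with 49 by the F test, medians of -0.01, -0.13, 0.01 and -0.01 at 2, 8, 24 and 48 h and chromosome 19 differences of 0.17 and 0.07. With upper-quartile scaling, medians were 0.25 and 0.30 at 2 and 8 h, 15 fell at 8 h, 3 at 24 h and 0 from 2 h to 8 h, where 1 rose, and 5 rose from 8 h to 24 h. With no low-count filter, 15, 8, 16 and 0 rose at 2, 4, 24 and 48 h and 4 from 8 h to 24 h, 0 fell from 2 h to 8 h, and the 2 h median was 0.08. DESeq2 had 10 fallen at 24 h and 9 from 8 h to 24 h, and 11 risen at 48 h and 6 from 2 h to 8 h. With only the groups compared, 5 fell at 4 h, 1 at 48 h, 0 from 2 h to 8 h and 1 from 8 h to 24 h, and 18 rose at 24 h, 15 at 48 h, 1 from 2 h to 8 h and 1 from 8 h to 24 h. RLE scaling, limma-voom and leaving out mitochondrial genes each had 0 fallen and 1 risen from 2 h to 8 h and 5 risen from 8 h to 24 h, and a filter of 1 CPM in 12 tumors had 1 fallen and 2 risen from 2 h to 8 h. With the GC trend removed, 17 fell at 8 h, 1 at 48 h and 1 from 2 h to 8 h, 3 rose from 2 h to 8 h and 5 from 8 h to 24 h, and the chromosome 19 difference was 0.20, 0.07 and 0.08 at 8, 24 and 48 h. Like counts there hold different members: both fits called 3 of the 8 falls at 2 h and 3 of the 6 at 24 h, and 19 of the 31 rises at 2 h and 19 of the 30 at 24 h.

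Over 60 pairs of tumors with the same replicate number, the mean r of their deviations was -0.013, and 20 pairs correlated over 0.1. The labels do not say whether the numbers pair tumors. A low mean r cannot settle it, and no conclusion is drawn. With the replicate block, 1 member fell from 2 h to 8 h, and 30, 12, 47, 27 and 4 rose against vehicle. With the replicate block and the GC trend removed, 17 fell at 8 h and 0 from 2 h to 8 h, where 1 rose, and the chromosome 19 difference was 0.20, 0.09 and 0.10 at 8, 24 and 48 h.

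Leaving out each tumor, fallen members ranged from 4 to 14 at 2 h, 7 to 13 at 4 h, 3 to 8 at 24 h, 0 to 4 from 2 h to 8 h and 1 to 10 from 8 h to 24 h. Risen members ranged from 15 to 45 at 24 h, 1 to 10 at 48 h, 0 to 3 from 2 h to 8 h and 1 to 12 from 8 h to 24 h. The 8 h median ranged from 0.04 to 0.22, and the chromosome 19 difference from 0.15 to 0.32 at 8 h, -0.05 to 0.11 at 24 h, -0.01 to 0.05 from 2 h to 8 h and -0.13 to 0.02 from 8 h to 24 h. Of 51 calls of named members, 0 reversed under any alternative, 15 were lost on leaving out some tumor, 17 on log2(TPM + 1) and 8 with the GC trend removed. The median standard error of 0.17 at 8 h limits which changes can be called, and how far depth sets it was not tested.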
